A study of Mus musculus with 24 samples.

Results

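The eye cup is what remains of the eye after the neural retina has been lifted out, and its labelled tissues are the retinal pigment epithelium (RPE), the choroid and the sclera. The 6 eye cups of PRDM13-OE mice were compared here, 3 from mice given dox for 72 h and 3 from untreated mice, out of 24 libraries in the series and 12 eye cups. PRDM13-OE mice carry 1 copy of a knock-in at Rosa26 in which the ubiquitous EF-1α promoter drives the Tet-On activator and a dox-responsive promoter drives HA-tagged human PRDM13, a zinc finger transcription factor. By their labels both groups carry this cassette, on a C57BL/6J background, though 1 untreated library goes against its label, as described with the depth. Dox started at P28. Mice with dox drank 2 mg/ml dox with 10% sucrose, and no sucrose is given for untreated mice, so dox and sucrose cannot be told apart by this comparison. The study describes some expression from the cassette without dox, and the human transcript was not analysed here.

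The RPE is a pigmented monolayer that recycles visual pigment chromophore and clears shed photoreceptor tips. The choroid is a dense vascular bed behind it, so blood held in its vessels is part of an eye cup, and RNA still present in circulating red cells, mainly in reticulocytes, is rich in globin messages. Adult mouse haemoglobin joins α chains, encoded by Hba-a1 and Hba-a2, with β chains, encoded in C57BL/6 mice by Hbb-bs and Hbb-bt. Alas2 carries out the first step of haem synthesis in red cell precursors.

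The 3 genes that passed edgeR's test between the 2 groups were all globin genes, although none passed when all 12 eye cups were fitted together. Each of the 4 adult globin transcripts was lower in all 3 eye cups with dox than in all 3 without, and their summed level was 68.9 times higher without dox. Hbb-bs also fell in the neural retina of the same mice. Expression is given as CPM, read counts scaled to library size with edgeR's TMM factors over the 12 eye cups, and fold changes are log2, dox minus untreated, with their standard error (SE).

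The 200 bases before the RefSeq start of the globin genes are shown because these genes fell together. The sequences come from RefSeq's table for GRCm38.p6 and were placed on GRCm39 by exact match. Capitals mark 4 motifs, searched on both strands: the CCAAT box (on the reverse strand its letters are ATTGG), the CACCC box that KLF1 is known to bind, the GATA site, searched with the letters GATAAG, and the start-proximal box, searched with the letters TATAA. No 2 matches overlap.
Hba-a1: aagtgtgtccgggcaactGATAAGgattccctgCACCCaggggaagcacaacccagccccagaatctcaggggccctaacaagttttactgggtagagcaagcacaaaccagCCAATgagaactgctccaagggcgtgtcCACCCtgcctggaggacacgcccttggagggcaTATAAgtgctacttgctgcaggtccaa
Hbb-bs: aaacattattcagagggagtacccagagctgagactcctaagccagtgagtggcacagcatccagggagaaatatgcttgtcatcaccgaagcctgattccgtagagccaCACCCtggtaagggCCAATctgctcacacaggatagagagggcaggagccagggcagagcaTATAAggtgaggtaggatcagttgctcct
Hbb-bt: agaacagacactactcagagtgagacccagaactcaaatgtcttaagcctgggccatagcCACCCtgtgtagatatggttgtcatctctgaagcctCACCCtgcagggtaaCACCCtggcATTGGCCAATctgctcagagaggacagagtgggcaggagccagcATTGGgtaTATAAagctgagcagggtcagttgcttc
The Hba-a1 window matched chr11:32233472-32233671 and, without a mismatch, chr11:32246289-32246488 before Hba-a2, both on the plus strand. The Hbb-bs window lies at chr7:103477136-103477335 and the Hbb-bt window at chr7:103463131-103463330, both on the minus strand. The deposited gene models of Hba-a1, Hbb-bs and Hbb-bt begin inside these windows, upstream of the RefSeq starts.

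All 3 windows hold the CCAAT, the CACCC and the TATAA letters, and CCAAT begins 88, 76 and 75 bases before the start in Hba-a1, Hbb-bs and Hbb-bt. The GATAAG letters were found 182 bases before the start in Hba-a1 and are not in the windows of Hbb-bs and Hbb-bt. Of 32851 promoters of the same length, 29.3% hold the CCAAT letters on either strand, 45.5% those of CACCC, 18.5% those of TATAA and 5.13% those of GATAAG, so the first 3 are common and a match is only a description. The coding sequences of Hba-a1 and Hba-a2 are identical at 425 of 426 bases, and those of Hbb-bs and Hbb-bt at 440 of 441. How the counting assigned reads shared by such copies is not given in the sources used here, so the split within each pair is uncertain and sums are given as well. Before their starts, Hbb-bs and Hbb-bt are identical at 118 of 199 aligned bases.

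Between 15825059 and 20396905 reads per eye cup were counted on genes. The transcript Gm13394 marked mice of the PRDM13-OE label in these data, at 204 CPM or more in the other 5 PRDM13-OE eye cups and at most 7.54 CPM in the wildtype ones. The library labelled untreated PRDM13-OE 1 had 3.12 CPM of Gm13394, and the retina of that mouse had 4.84 CPM, both at the wildtype level. Its genotype therefore goes against the label by this transcript, and counts are also given without it. Female-specific Xist was detected in all 3 libraries with dox and in untreated 1 and 2, and Y-linked Ddx3y only in untreated 3 among the 6. The study describes the wildtype mice as littermates, and nothing in the sources used here ties single mice of the groups to each other. P-values measure the spread between single mice.

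Hbb-bs, a β-globin gene (ENSMUSG00000052305), had 4.50, 4.75 and 4.56 CPM in the 3 eye cups with dox and 255, 230 and 364 CPM in the 3 untreated ones. These CPM rest on raw counts of 94, 82 and 80 with dox and of 5071, 3926 and 5858 without. The groups did not overlap, and the 3 libraries with dox lay within a far narrower range than the untreated ones. Hbb-bs fell by 5.97 on the log2 scale (SE 0.31, adjusted p = 0.0045, edgeR's quasi-likelihood test with Benjamini-Hochberg adjustment).

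Hbb-bt (ENSMUSG00000073940) was counted 8, 6 and 2 times with dox and 795, 559 and 761 times without, or 0.383, 0.348 and 0.114 CPM against 40.0, 32.8 and 47.3 CPM. Dox changed it by -7.14 on the log2 scale (SE 0.46, adjusted p = 0.011 by edgeR), a difference that rests on 8 reads or fewer in each library with dox. Hba-a1, an α-globin gene (ENSMUSG00000069919), had 6.04, 5.22 and 5.93 CPM with dox and 239, 316 and 631 CPM without. The difference was -6.14 on the log2 scale (SE 0.48, adjusted p = 0.027 by edgeR).

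Hba-a2 (ENSMUSG00000069917) had 0.671, 0.985 and 0.513 CPM with dox and 21.8, 63.5 and 104 CPM without. This gene missed the threshold, with a difference of -6.48 on the log2 scale (SE 0.70, adjusted p = 0.13 by edgeR), beside the wider spread of its untreated libraries. Summing each pair of copies gave -6.18 for α-globin (SE 0.50, adjusted p = 0.047 by edgeR) and -6.07 for β-globin (SE 0.31, adjusted p = 0.0039 by edgeR). The sum of all 4 genes was 11.6, 11.3 and 11.1 CPM with dox and 556, 642 and 1146 CPM without, so the lowest untreated library was 47.9 times above the highest one with dox. The α and β sums were 71.0 and 66.1 times higher without dox.

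Alas2 had 3.11, 3.25 and 1.03 CPM with dox and 12.8, 12.0 and 13.5 CPM without, with no overlap. Its log2 fold change of -2.41 (SE 0.47) was smaller than that of the globins. edgeR did not call Alas2 (unadjusted p = 0.0012), and DESeq2 called it lower (adjusted p = 0.0011). In wildtype eye cups the log2 fold change of Alas2 was -2.11 (unadjusted p = 0.072), and the interaction of genotype and dox had an unadjusted p of 0.79. Slc4a1, the anion exchanger of the red cell membrane, was counted 1, 0 and 0 times with dox and 14, 16 and 36 times without. In an eye cup, fewer red cells and less globin RNA per cell cannot be told apart. Other blood cells were measured by markers: of 9 lymphocyte and 4 neutrophil genes tested, 0 passed an unadjusted p of 0.05 in either direction, and macrophage markers gave 1 lower of 10, beside 3.04% of all genes lower at that p. Lymphocyte genes were lower in sign in 8 of 9, at a median of -1.33, and macrophage genes in 8 of 10, at -0.26. Neither median held its sign over the alternatives, which ran from -1.90 to 0.12 and from -0.45 to 0.07. The lymphocyte sums were 2.92, 2.84 and 1.48 CPM with dox and 2.16, 4.34 and 10.9 CPM without, and overlapped. Macrophage sums were 253, 352 and 174 CPM against 275, 381 and 565 CPM and overlapped too.

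**Figure D1:**
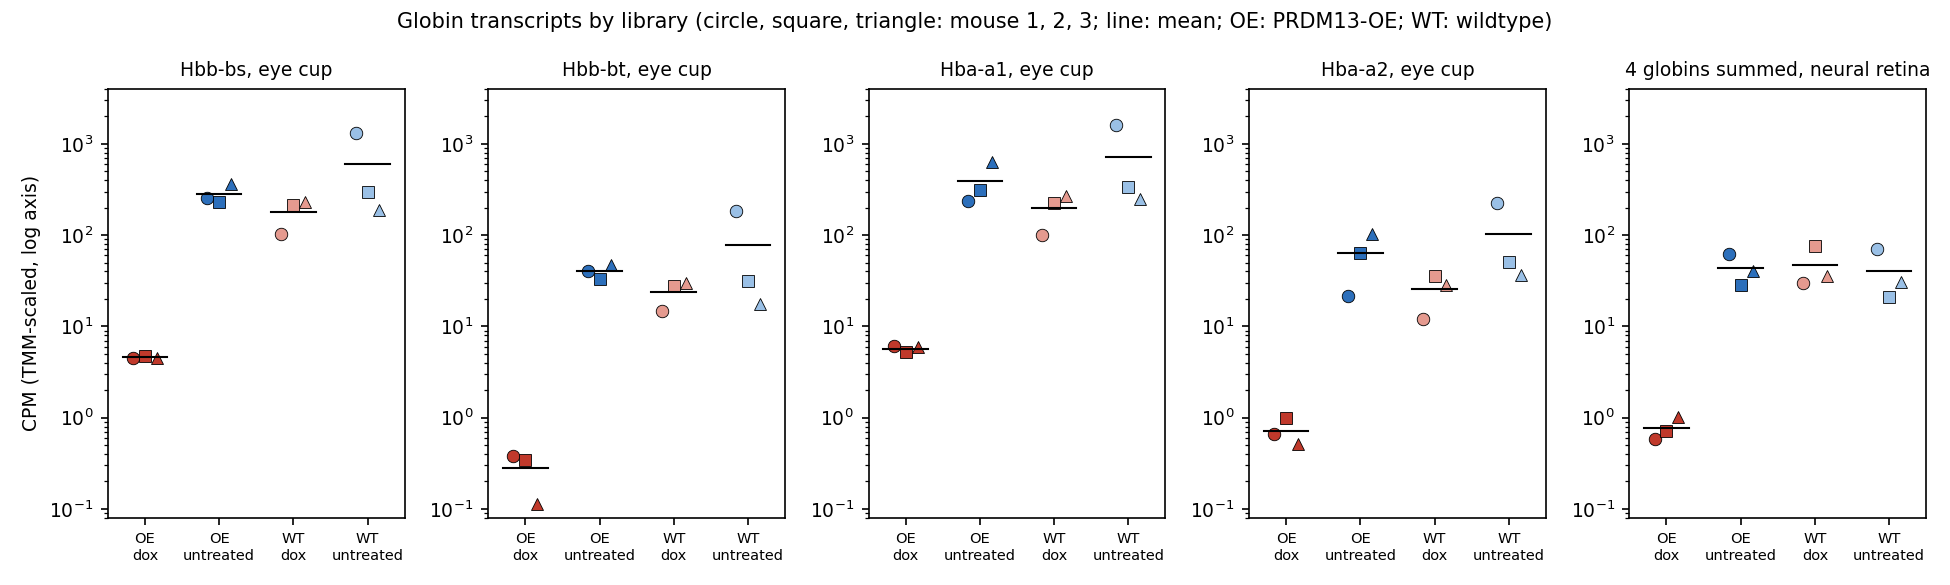
CPM on a log axis (y) of the 4 globin genes in the 12 eye cups and of their sum in the 12 neural retinas, by group (x; OE, PRDM13-OE; WT, wildtype), with each mouse as a point and the group mean as a line. The 3 PRDM13-OE eye cups with dox lie below every other eye cup in each panel, and the PRDM13-OE retinas with dox lie between 0.588 and 1.02 CPM against 28.2 to 62.8 CPM untreated.

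The globins were then read in wildtype mice, which lack the cassette, with and without dox. In wildtype eye cups Hbb-bs had 104, 213 and 229 CPM with dox and 1318, 300 and 189 CPM without, and these groups overlapped. Its log2 fold change there was -1.79, unadjusted p = 0.041 by edgeR. The summed globins of wildtype eye cups were 430 ± 174 CPM (SD, n = 3) with dox and 1512 ± 1572 CPM untreated, the latter spread by untreated wildtype 1 with 3323 CPM. The interaction of genotype and dox over the 12 eye cups gave unadjusted p-values of 4e-04 for Hbb-bs, 0.00052 for Hbb-bt and 0.00082 for Hba-a1, and none passed adjustment (adjusted p = 0.75). Of 23837 genes it called 0 with edgeR and 33 with DESeq2, and 1526 (6.40%) had an unadjusted p under 0.05. Without untreated wildtype 1 the interaction called 4 genes, which were Hba-a1, Hbb-bs, Hbb-bt and Rgs9, so the call of a difference between genotypes depended on that library.

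In the neural retina of the same PRDM13-OE mice, Hbb-bs had 0.118, 0.439 and 0.377 CPM with dox and 30.8, 13.6 and 19.9 CPM without. The log2 difference was -6.05 (adjusted p = 1.05e-06 by edgeR), and the 4 globins summed were 56.7 times higher without dox. The globin sum of the untreated retinas was 43.9 ± 17.6 CPM (SD, n = 3), against 781 ± 319 CPM in the untreated eye cups. The tissue by dox term, fitted on both tissues of each mouse, was 0.13 for Hbb-bs (SE 0.42, unadjusted p = 0.77), and this term called 0 of 23812 genes, with 632 (2.65%) at an unadjusted p under 0.05. DESeq2 called 3 genes for it.

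Across all 21604 genes tested, edgeR called 0 genes higher and 3 lower with dox, which is 0.0139% of those tested. An unadjusted p under 0.05 was reached by 894 genes (4.14%), of which 238 were higher (1.10%) and 656 lower (3.04%). This balance depended on the fit: 314 were higher and 502 lower with library size scaling, and without the library labelled untreated PRDM13-OE 1 it turned round, to 1265 higher (6.02%) and 995 lower (4.73%) of 21023. DESeq2 on the same counts called 12 genes higher (0.0555%) and 47 lower (0.218%), 0.273% in all, and all 4 globins were among the lower ones. The 6 libraries varied strongly, with a biological coefficient of variation of 0.533, against 0.310 in the 6 wildtype eye cups and 0.0999 in the 6 PRDM13-OE retinas. The wildtype eye cups gave 0 calls with edgeR, with 6517 of 21799 genes (29.9%) at an unadjusted p under 0.05 and 1968 calls by DESeq2. Without wildtype dox 3 edgeR called 930 genes there, and without untreated wildtype 1 it called 1991.

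The calls depended on which libraries were fitted. No gene was called lower without dox 1 or without dox 2, 2 were called without dox 3, untreated 2 or untreated 3, and 4 without the library labelled untreated PRDM13-OE 1, the fourth being Hba-a2. In 1 fit of all 12 eye cups edgeR called none of the 3, at adjusted p-values of 0.053 for Hbb-bs, 0.066 for Hbb-bt and 0.062 for Hba-a1 and log2 fold changes of -5.94, -7.10 and -6.11. Over the 6 fits that left out 1 library the log2 fold change of Hbb-bs ran from -6.08 to -5.72.

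**Figure D2:**
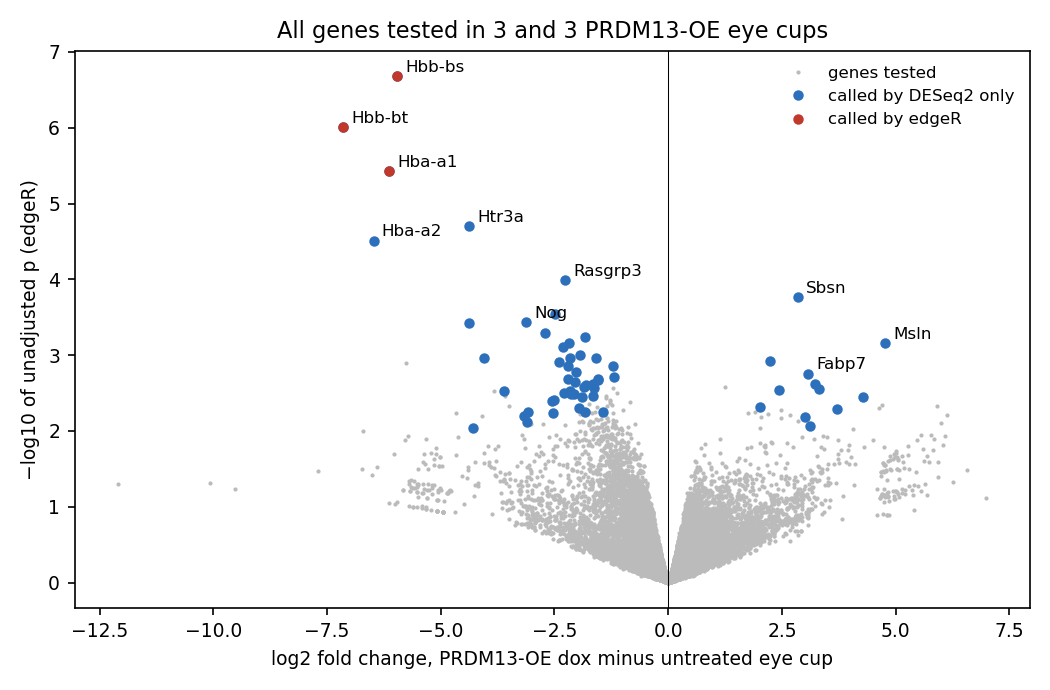
Each point is 1 of the 21604 genes tested, placed by its log2 fold change in eye cups, dox minus untreated (x), and the −log10 of its unadjusted edgeR p (y), with genes called by edgeR in red and by DESeq2 alone in blue. The 3 called globins stand at the upper left, and Sbsn and Msln lead the side of genes higher with dox, where edgeR called 0.

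With no overlap between the groups, 1017 genes were higher (4.71%) and 996 lower (4.61%), so a lack of overlap alone says little. Beyond the globins, such genes with the smallest p on the lower side were led by Htr3a, a subunit of the serotonin-gated ion channel. Htr3a had 1.15, 2.72 and 1.14 CPM with dox and 30.4, 32.1 and 38.9 CPM without. The difference was -4.37 on the log2 scale (SE 0.44, adjusted p = 0.11 by edgeR), which is no call, and the adjusted p of Htr3a ran from 0.070 to 0.79 when single libraries were left out. DESeq2 called it. In the retina of these mice Htr3a fell as well, by 3.17 on the log2 scale (adjusted p = 0.00078 by edgeR).

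None of the other genes on this side was called by edgeR. Nog, which encodes the BMP antagonist noggin, had 6.47, 17.6 and 6.21 CPM with dox against 74.3, 67.3 and 116 CPM. Rasgrp3, an exchange factor for Ras proteins, had 12.9, 13.7 and 9.46 CPM against 41.4, 56.9 and 72.0 CPM. Wfikkn2, a secreted inhibitor of GDF ligands, had 31.0, 40.0 and 13.2 CPM against 128, 227 and 176 CPM. Untreated wildtype eye cups held more of all 3 than untreated wildtype retinas, by 6.69, 4.04 and 4.06 on the log2 scale.

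Map6d1, a microtubule-associated protein, had 2.44, 2.90 and 4.22 CPM with dox and 13.2, 21.3 and 18.3 CPM without. Its log2 fold change in the retina was -0.03, and the difference between tissues was -2.39 (SE 0.42, unadjusted p = 4.3e-04, not called by edgeR and called by DESeq2). Kera, a proteoglycan of corneal and scleral stroma, had 3.16, 2.61 and 2.85 CPM against 13.0, 7.86 and 17.6 CPM. Unc13c, a vesicle priming factor, and the predicted transcript A930028N01Rik completed this side, with log2 fold changes of -1.83 and -4.38. DESeq2 called each of these lower genes. With dox in wildtype eye cups the log2 fold changes were -1.30 for Htr3a, -1.47 for Nog, -1.05 for Rasgrp3, -1.29 for Wfikkn2, -0.45 for Map6d1, -0.81 for Kera, -1.61 for A930028N01Rik and 0.69 for Unc13c, so all but Unc13c had the same sign there and a smaller size. edgeR called none of them in wildtype eye cups, where it called 0 of all 21799 genes. The wildtype changes of Htr3a, Nog, Rasgrp3, Wfikkn2, Kera and A930028N01Rik had unadjusted p-values of 0.021, 0.023, 0.014, 0.0078, 0.036 and 0.036 by edgeR. Those of Map6d1 and Unc13c had 0.22 and 0.23. In that fit 3118 of all genes were lower at an unadjusted p under 0.05.

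On the higher side, Msln, which encodes the surface glycoprotein mesothelin, had 81.8, 145 and 45.6 CPM with dox and 4.88, 0.528 and 4.41 CPM without. The log2 difference of 4.77 was not called by edgeR (SE 0.84, adjusted p = 0.97) and was called by DESeq2 (adjusted p = 1.2e-06). Sbsn, suprabasin of stratified epithelium, had 14.2, 14.4 and 8.43 CPM against 2.31, 1.35 and 1.37 CPM, with the smallest p on this side (unadjusted p = 1.7e-04). In wildtype eye cups the log2 fold changes of Msln and Sbsn with dox were 0.09 and -1.11, and that of Gabrp was -1.06. Gabrp, the π subunit of the GABA-A receptor, had 49.5, 12.3 and 5.24 CPM with dox and 2.11, 0.352 and 0.869 CPM without.

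Fabp7, Slc29a4, Tmem26 and Rspo2 were also called higher in the retina of the same mice. Fabp7, the brain-type fatty acid binding protein, had 42.4, 15.7 and 81.9 CPM with dox and 3.67, 6.92 and 5.77 CPM without in the eye cup. Its log2 fold change of 3.08 (SE 0.63) compares with 6.69 in the retina. Slc29a4, a monoamine transporter, had 54.5, 19.4 and 126 CPM against 6.14, 10.0 and 3.73 CPM. Tmem26 had 12.5, 3.94 and 22.9 CPM against 1.01, 1.76 and 0.186 CPM, and Rspo2, a secreted enhancer of Wnt signalling, had 7.28, 5.68 and 13.3 CPM against 1.51, 1.88 and 3.04 CPM. Their log2 fold changes with dox in wildtype eye cups were 0.07 for Fabp7, 1.36 for Slc29a4, 0.74 for Tmem26 and 0.15 for Rspo2. In each of these 4 genes dox 3 was highest and dox 2 lowest, which is the order of the rod markers in the same libraries, and the part of retinal tissue was not tested.

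The peptide transporter gene Slc15a2 had 30.9, 47.4 and 26.3 CPM with dox and 15.0, 14.0 and 14.1 CPM without, and its retinal log2 fold change of 0.52 (adjusted p = 0.037 by edgeR) was below the size needed for a call. Upb1, which acts late in pyrimidine breakdown, had 10.4, 16.5 and 5.19 CPM against 2.97, 1.23 and 1.61 CPM. Gm12411 and Gm94 had log2 fold changes of 2.25 and 3.23. ENSMUSG00000121151 stayed under 1 CPM in all 6 libraries, with an untreated group near 0, so no fold is given. DESeq2 called Msln, Sbsn, Gabrp, Fabp7, Slc29a4, Tmem26, Rspo2, Upb1, Gm12411 and Gm94 higher, did not call Slc15a2 and gave no adjusted p for ENSMUSG00000121151, while edgeR called none of the 12.

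**Figure D3:**
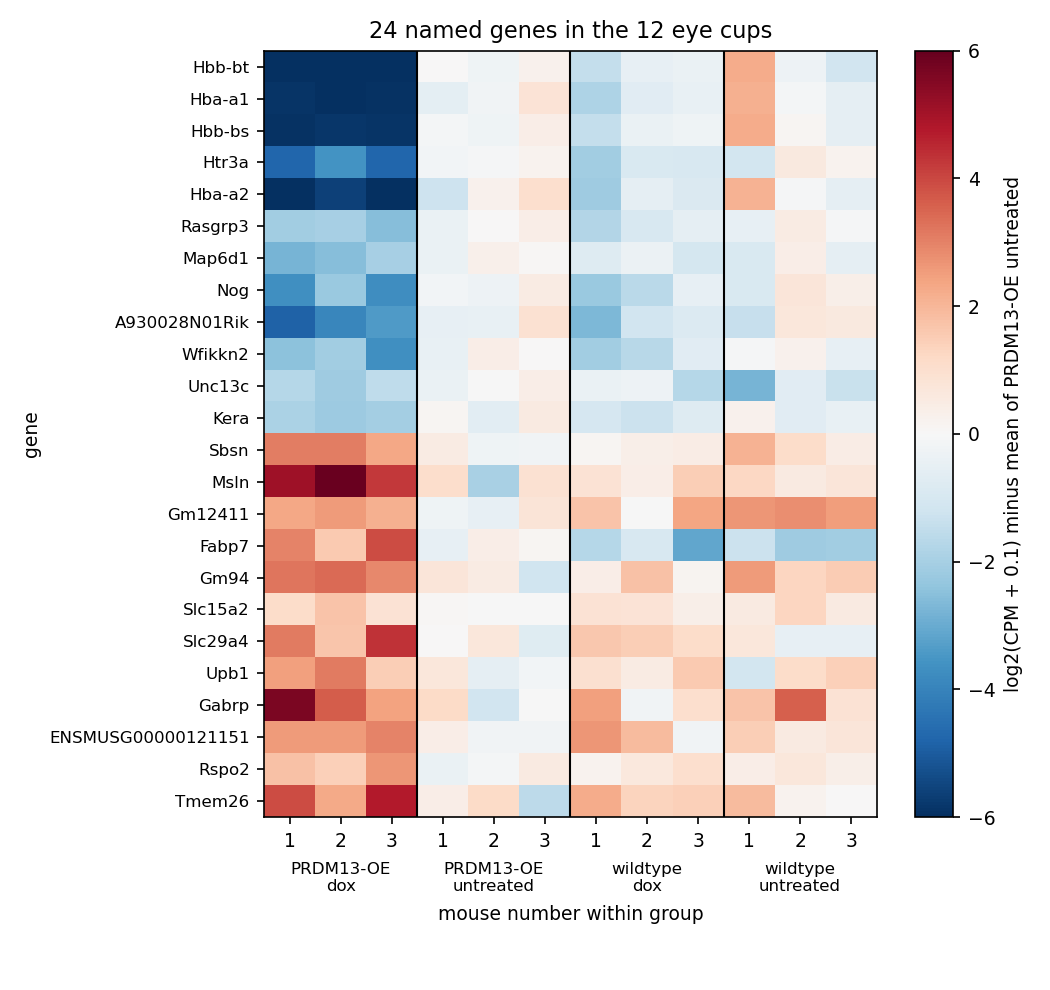
Colour shows log2(CPM + 0.1) minus the mean of the untreated PRDM13-OE eye cups for 24 genes (y) in the 12 eye cups (x, mouse number within group), with colours held at 6 in either direction. The 12 upper genes are blue in all 3 PRDM13-OE eye cups with dox and the 12 lower ones red, while the wildtype columns with dox are mostly paler.

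Eye cups are dissected by hand and can keep parts of neighbouring tissue, so marker sums were read in each library. Rods, the main cell of the neural retina, gave 12736, 5866 and 37084 CPM over 14 genes with dox and 13632, 21648 and 7777 CPM without. As a share of the rod sum in the retina of the same mouse this was 23.7%, 10.6% and 60.9% with dox and 17.2%, 29.6% and 10.6% without. Rod RNA was present in all 6 eye cups, and the groups overlapped. Of the 14 rod genes 0 passed an unadjusted p of 0.05 in either direction, at a median log2 fold change of 0.49 beside 0.05 over all genes tested.

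The surface epithelium of the cornea and conjunctiva was the other large contributor. Its 9 markers, led by the keratins Krt5 and Krt13, summed to 34468, 23142 and 7605 CPM with dox and 23678, 1407 and 1494 CPM without. The library labelled untreated PRDM13-OE 1 lay with the dox group and the other untreated eye cups far below it. Accordingly 0 of 9 passed an unadjusted p of 0.05 over all 6 libraries, at a median of 1.13 and beside 1.10% of all genes higher. Without that library 9 of 9 were higher, at a median of 3.83 and beside 6.02% of all genes in that fit. Sbsn and Gabrp, genes that stratified epithelia express, had higher levels with dox and no edgeR call, and the part of epithelial tissue in their difference was not tested. Skeletal muscle markers gave 1421, 3047 and 383 CPM with dox and 1132, 2160 and 3324 CPM without, and lens crystallins 70.5, 391 and 10.3 CPM against 253, 77.1 and 195 CPM.

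None of the rod, surface epithelium, muscle and lens sums separated the 2 groups as the globins did. With the rod sum as a covariate, edgeR called 2 genes lower, Hbb-bs and Hbb-bt, and 1 higher, Slc29a4, while Hba-a1 lost its call (log2 fold change -6.09, adjusted p = 0.074). With the skeletal muscle sum as a covariate Hba-a1 also lost its call (-5.98, adjusted p = 0.20), which left 2 called lower. With the surface epithelium sum as a covariate, chosen after seeing the data, the 3 globins and Slc34a2 were called lower.

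**Figure D4:**
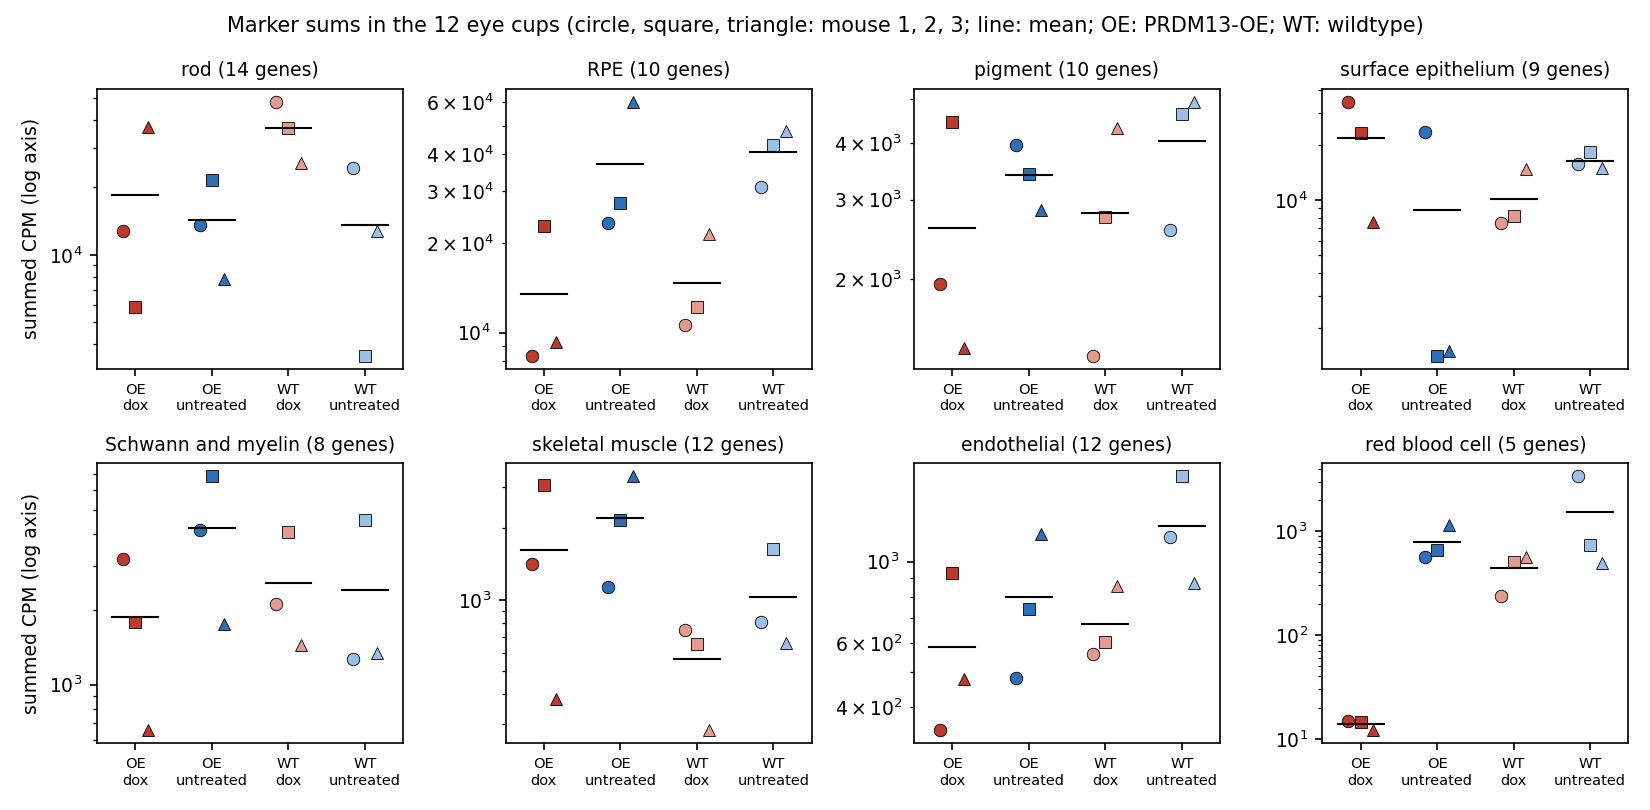
Summed CPM on a log axis (y) of 8 marker lists in the 12 eye cups by group (x; OE, PRDM13-OE; WT, wildtype), with each mouse as a point and the mean as a line. Red blood cell genes separate PRDM13-OE dox from all other eye cups, whereas rod, surface epithelium, skeletal muscle and endothelial sums overlap between the 2 PRDM13-OE groups.

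Of 10 RPE genes, 6 reached an unadjusted p of 0.05 on the lower side and 0 on the higher side, beside 3.04% and 1.10% of all genes tested. None was called by edgeR and 1, Rpe65, was called by DESeq2, and the list median was -1.31. Rpe65, the isomerase of the visual cycle, had 405, 810 and 411 CPM with dox and 1376, 1684 and 3137 CPM without. The log2 difference was -1.96 (SE 0.49, unadjusted p = 0.0049), and -1.54 in wildtype eye cups. In FPKM, which accounts for gene length, Rpe65 was at 225, 439 and 216 with dox and 762, 991 and 1779 without.

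The other RPE genes at this level were Rgr, a light-sensing opsin of the RPE, at a log2 fold change of -1.86, the retinol receptor Stra6 at -1.48, the phagocytosis receptor Mertk at -1.36, Rlbp1 at -1.20 and Lrat at -1.12. The interaction of genotype and dox had an unadjusted p of 0.52 for Rpe65 and 0.81 for Stra6. In wildtype eye cups 9 of the 10 RPE genes were on the lower side at this p, and their median was -1.36. Of all 21799 genes tested there, 3118 were lower and 3399 higher at this p. Among 10 pigment genes 4 were lower at an unadjusted p of 0.05, which were Slc45a2, Gpr143, Mitf and Oca2, beside 3.04% of all genes in PRDM13-OE eye cups, at a list median of -0.79 in both genotypes. The transporter gene Slc45a2 had 18.6, 20.5 and 12.5 CPM with dox and 32.0, 38.8 and 39.7 CPM without. The RPE sum was 8344, 22878 and 9287 CPM with dox and 23424, 27424 and 60276 CPM without, so the groups did not overlap, while the rod sums did. The part of tissue composition in the RPE difference was not tested.

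Rdh10, Col8a2 and Fzd4 were among the 47 genes that DESeq2 called lower. Rdh10, a retinol dehydrogenase, had 201, 278 and 169 CPM with dox and 672, 936 and 1537 CPM without, with an adjusted p of 8.2e-05 by DESeq2. Col8a2, a collagen of basement membranes, had 218, 373 and 158 CPM against 734, 865 and 1435 CPM. Fzd4, a receptor for norrin and Wnt ligands, had 40.9, 51.1 and 26.4 CPM against 94.1, 115 and 137 CPM. With dox in wildtype eye cups the log2 fold changes of Rdh10, Col8a2 and Fzd4 were -1.26, -1.10 and -0.86. All 3 were chosen after their values were seen, and none passed with edgeR.

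Genes were also divided by where untreated wildtype tissue expresses them, at a 4-fold difference between eye cup and retina. Of 3509 genes of the eye cup class, 341 (9.72%) were lower at an unadjusted p of 0.05 and 43 higher. Of 1753 genes of the retina class, 3 were lower (0.171%) and 27 higher, and of 16342 shared genes 312 were lower and 168 higher. The median log2 fold changes of the eye cup, retina and shared classes were -0.25, 0.62 and 0.05. With dox in wildtype eye cups these medians were -0.76, 1.72 and 0.02, so the signs were the same there. Of the 59 DESeq2 calls, 43 were of the eye cup class, 15 shared and 1 of the retina class.

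Of 8 myelin and Schwann cell genes tested, 4 were lower at an unadjusted p of 0.05 and 0 higher, beside 3.04% and 1.10% of all genes. None was called by edgeR and 1, Sox10, was called by DESeq2 (adjusted p = 0.024), and the list had a median of -1.55 against -0.33 in wildtype eye cups. Leaving out the library labelled untreated PRDM13-OE 1 gave 5 lower and 1 higher, beside 4.73% and 6.02% of all genes in that fit. Sox10, a transcription factor of Schwann cells and melanocytes, had 32.7, 59.9 and 24.4 CPM with dox and 95.3, 141 and 266 CPM without. Its log2 fold change was -2.15 by DESeq2, and -1.20 by edgeR with dox in wildtype eye cups. Mbp, myelin basic protein, had 821, 200 and 117 CPM against 1103, 3592 and 1028 CPM. It was 1 of 2 members of the 8 that were lower without overlap, beside 4.61% of all genes. The summed list did overlap, at 3174, 1785 and 658 CPM with dox and 4168, 6857 and 1757 CPM without.

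Gfap, the filament protein of astrocytes and reactive glia, had 246, 531 and 255 CPM with dox and 724, 1350 and 1489 CPM without. Its log2 fold change was -1.83 in the eye cup and -0.01 in the retina. In the list of 10 glial reactivity genes, Gfap and Osmr were lower at an unadjusted p of 0.05 and Lcn2, the iron-carrier binding lipocalin, was higher, beside 3.04% and 1.10% of all genes. The list gave 3 lower and 1 higher without the library labelled untreated PRDM13-OE 1, beside 4.73% and 6.02% of all genes in that fit. DESeq2 called Gfap lower (adjusted p = 0.041), and edgeR called none of the list. Lcn2 had 14.6, 9.21 and 4.96 CPM with dox and 3.62, 1.76 and 1.43 CPM without, and it was also called higher in the retina.

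Vessel markers were compared with the globins. None of the 12 endothelial genes reached an unadjusted p of 0.05, all 12 were lower in sign and their median was -0.38, which ran from -1.01 to 0.15 over the alternatives and so changed sign. Pecam1, an adhesion molecule of endothelial junctions, had 16.5, 46.5 and 20.8 CPM with dox and 22.3, 33.1 and 44.5 CPM without, with overlap, beside the 68.9 times of the globin sum. Among 13 angiogenic genes Vegfa and Angpt1 were lower at an unadjusted p of 0.05 and 0 were higher, beside 3.04% and 1.10% of all genes. Without the library labelled untreated PRDM13-OE 1, 4 of the 13 were lower, beside 4.73% of all genes in that fit. Angpt1, the ligand of the Tie2 receptor, had 7.23, 6.72 and 6.04 CPM against 13.2, 13.0 and 21.4 CPM. Timp3, a metalloproteinase inhibitor of Bruch's membrane, had 346, 394 and 189 CPM against 534, 874 and 851 CPM. Of 12 metalloproteinase and inhibitor genes, 3 were lower at an unadjusted p of 0.05 with that library and 3 without it. These counts stand beside 3.04% and 4.73% of all genes lower.

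The retina of the same 6 mice gave 214 calls (1.04% of 20603 genes), of which 86 were higher (0.417%) and 128 lower (0.621%). In the eye cups 78 and 127 of these genes were tested. Of the 78 called higher in retina, 28 (35.9%) were higher in the eye cup at an unadjusted p of 0.05 and 0 were lower, beside 1.10% higher over all genes tested. Of the 127 called lower in retina, 20 (15.7%) were lower in the eye cup and 0 higher, beside 3.04% lower over all genes. Only Hbb-bs, Hbb-bt and Hba-a1 among them were called by edgeR in the eye cup.

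These counts depend on how the eye cups are fitted. With the rod sum as a covariate, 30 of the 78 were higher and 49 of the 127 lower, beside 1.68% and 4.48% of all genes in that fit. Without the library labelled untreated PRDM13-OE 1, 26 of the 78 were higher, and of the 127 genes 20 were lower and 7 (5.51%) higher. Of all genes in that fit, 6.02% were higher and 4.73% lower, so the 7 are at the share of all genes. Only the eye cup of that mouse was left out, and the 78 and 127 genes come from the fit that holds its retina. Without its retina, edgeR called 229 genes in the retina and kept 176 of the 214. The 2 tissues come from the same mice and every eye cup held retinal RNA, so the counts are not independent of each other.

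Rgs9, which speeds the recovery of the photoreceptor light response, was lower with dox at an unadjusted p of 0.05 and not called by edgeR. It had 23.9, 18.0 and 37.6 CPM with dox and 77.6, 64.0 and 60.9 CPM without, and the groups did not overlap. The part of retinal tissue in this difference was not tested. Its log2 fold change was -1.36 (SE 0.32), close to -1.43 in the retina, and 1.21 in wildtype eye cups. Pde6c, the cone phosphodiesterase, had 39.8, 23.8 and 131 CPM with dox and 14.2, 20.7 and 9.13 CPM without, and was called higher in the retina. Cckbr, a cholecystokinin receptor, had 1.15, 0.695 and 2.45 CPM against 3.67, 6.39 and 3.85 CPM, and Gulo, an enzyme of vitamin C synthesis, had 2.40, 2.67 and 3.76 CPM against 4.83, 10.1 and 5.09 CPM.

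**Figure D5:**
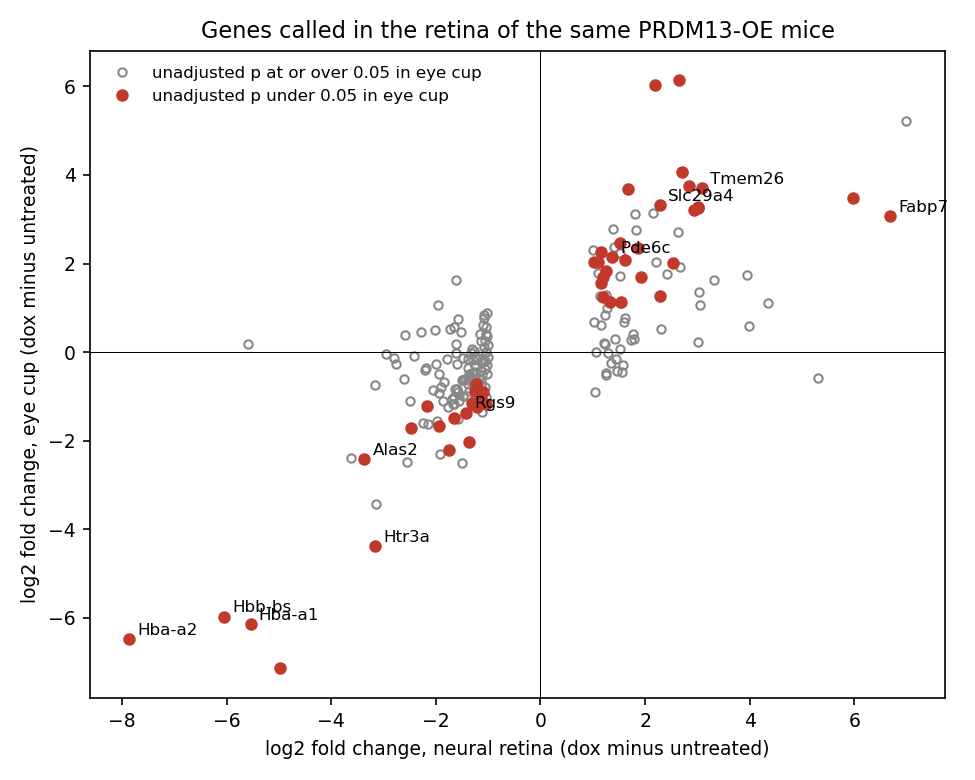
For genes called in the neural retina of the PRDM13-OE mice and tested in their eye cups, the log2 fold change in retina (x) is set against that in eye cup (y), dox minus untreated in both, with genes at an unadjusted p under 0.05 in the eye cup filled. The 28 and 20 filled points lie on the same side of 0 in both tissues, with the globins at the lower left and Fabp7 at the far right.

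Of a list of 25 genes, only part of which the study's text names, 24 were tested in the eye cups. Pde6c was higher at an unadjusted p of 0.05, and Rgs9, Htr3a, Gulo, Mef2c, Cckbr, Slc39a12 and Fgfr2 were lower, which is 1 and 7 of 24 beside 1.10% and 3.04% of all genes. The counts were 3 higher and 7 lower without the library labelled untreated PRDM13-OE 1, beside 6.02% and 4.73%. The list was drawn up with results of these data known, so its direction is no independent evidence. Mouse Prdm13 itself, which retinal amacrine cells express, had 8.96, 2.96 and 29.2 CPM with dox and 5.89, 12.3 and 0 CPM without. The groups overlapped, and dox 3, with the largest rod sum, had the highest level. Of 12 PRDM family genes tested 1, Prdm16, was lower at an unadjusted p of 0.05, and of the 3 PRDM13 network genes that could be tested 0 passed.

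In a list of 8 insertion site and carrier genes, 3 were higher at an unadjusted p of 0.05, beside 1.10% of all genes, at a median of 1.25. They were Gt(ROSA)26Sor, Gm7135 and Fabp7. The list was drawn up with results of these data known, so its count is no independent evidence. Fabp7 had 0.797, 1.34 and 0.738 CPM in the untreated PRDM13-OE retinas and 104, 102 and 95.1 CPM in those with dox. Without the library labelled untreated PRDM13-OE 1, which had the wildtype level of Gm13394, 2 of 8 were higher, at a median of 1.02 and beside 6.02% of all genes. Gt(ROSA)26Sor, the noncoding transcript of the Rosa26 locus, had 11.1, 11.6 and 15.3 CPM with dox and 6.44, 7.57 and 7.95 CPM without. Wildtype eye cups held 7.07 to 9.77 CPM. The log2 fold change was 0.77 in the eye cup (SE 0.30) and 0.77 in the retina, where it passed adjustment (adjusted p = 0.0016 by edgeR).

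Few genes of the response lists reached an unadjusted p of 0.05. Ifit1 and Usp18 were higher at an unadjusted p of 0.05 among 13 interferon genes, beside 1.10% of all genes in this fit, and Ifit1 had 27.2, 32.4 and 35.3 CPM with dox and 23.8, 14.2 and 22.0 CPM without. Psat1 was the only member of the ATF4 targets past this level, and it was lower. For p53 targets, heat shock, NRF2 targets, the glucocorticoid response, fasting and PPAR targets, the clock, cholesterol synthesis, immediate early genes, the cell cycle and the mitochondrial genome, 0 members passed in either direction over the 6 libraries. Without the library labelled untreated PRDM13-OE 1, 4 of 8 heat shock, 6 of 14 cell cycle, 5 of 13 interferon, 5 of 15 immediate early, 3 of 13 p53 and 3 of 16 cholesterol synthesis genes were higher, alongside the surface epithelium markers and beside 6.02% of all genes. In that fit the other lists just named gave at most 2 in either direction.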

How the data were processed

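RNA was extracted from flash-frozen neural retinas and eye cups with the Qiagen RNeasy Mini Kit, polyA-selected, and sequenced by Novogene on Illumina platforms. The submitters' processing notes name CASAVA, HISAT2 and GRCm39. The counting tool, annotation release and strandedness are not given in the sources used here. The authors deposited raw read counts per gene for 56748 genes, which were used for all tests, and FPKM values computed from gene length and counts, which were used only for levels of marker genes. Columns of the authors' own comparisons, holding group means, fold changes and p-values, were not used.

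Tests used edgeR 4.0.16 under R 4.3.3, with TMM factors and the quasi-likelihood F test, and kept a gene where the fitted libraries together held 10 counts or more. P-values were adjusted by Benjamini-Hochberg over all genes kept. Calls needed an adjusted p below 0.05 together with a log2 change larger than 1 up or down. The main comparison fitted the 6 PRDM13-OE eye cups alone, and wildtype eye cups, PRDM13-OE retinas, the genotype by dox interaction and the tissue by dox term with mouse as a block were fitted separately. Alternatives were DESeq2 1.42.0, library size or median-ratio scaling, no filter or filterByExpr, robust fitting, no fold cutoff, all 12 eye cups in 1 fit, a replicate block, rod and skeletal muscle covariates, and leaving out each library. A surface epithelium covariate and summed globin copies were chosen after seeing the data. The test was tried on simulated counts, but that outcome is not reported here, so how many true differences it would miss is not stated. The 6 eye cups held no copied library.

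Members and lists were chosen with earlier results of these data known. Named genes are 12 in each direction whose groups did not overlap and whose higher group had 10 counts or more in each library, called genes first and then by smallest p. Also named are the best expressed members of the lists and a list of 25 genes drawn in part from the study's text, and others are named after their values were seen. All 24 cell type and 20 response lists were measured. Some genes are not reported here. Figures were drawn with matplotlib 3.10.9.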

Additional observations from a re-analysis of the deposited data

How the results depend on the processing

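The count of 3 genes called lower was 3 with library size scaling, with median-ratio size factors, with filterByExpr, with robust fitting and with no fold cutoff. It was 5 with no filter, 47 with DESeq2 and 0 with all 12 eye cups in 1 fit, and ran from 0 to 4 when single libraries were left out. The count called higher was 12 with DESeq2, 1 with the rod covariate and 0 to 0 when libraries were left out. In wildtype eye cups, 0 calls became 756 with library size scaling and 1968 with DESeq2, and ran from 0 to 1991 over left-out libraries. The interaction gave 0 calls, 33 with DESeq2 and 0 to 4 over left-out libraries. The tissue by dox term gave 0 calls and 3 with DESeq2. The retina class share called lower at an unadjusted p of 0.05 was 0.171% and became 0.332% with a 2-fold class limit. The cause of these changes was not tested. Library size scaling moved the median of all genes by 0.11 on the log2 scale, and no called direction reversed under any alternative run. Of the values for single genes under alternatives, 992 kept their side of the threshold, 27 gained and 17 lost it. Mouse numbers pair no samples across groups: same-numbered libraries correlated at 0.63, -0.51 and -0.18 in their deviations from group means. With the replicate block 0 genes were called lower and 0 higher, Hbb-bs had a log2 difference of -5.94, and 190 genes were called in the retina. Depth allowed globins to be read in each library, but Hbb-bt with dox rests on at most 8 reads.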

Other observations

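Of 24 cell type lists, those not described above gave these counts at an unadjusted p of 0.05 in the 6 eye cups, where 3.04% of all genes were lower and 1.10% higher. Cone genes gave 1 higher of 10, which was Pde6c, fibroblast and sclera genes 1 lower of 12, cartilage-type matrix genes 1 lower of 8 and mast cell genes 1 lower of 6. Bipolar, amacrine, horizontal, ganglion, Müller glia, lens crystallin, other lens, mural, skeletal muscle and adipocyte genes gave 0 in either direction. Without the library labelled untreated PRDM13-OE 1, where 4.73% of all genes were lower and 6.02% higher, fibroblast and sclera genes gave 4 lower of 12, cartilage-type matrix genes 2 lower of 8, amacrine genes 2 higher of 9, mast cell genes 1 higher of 6 and 0 lower, mural genes 1 higher of 8 and Müller glia genes 1 lower of 6. Mitochondrial transcripts varied among the untreated libraries, with 42844, 81392 and 195940 CPM summed over 13 genes, and 55330, 47024 and 71718 CPM with dox. Gata1, an erythroid transcription factor, was called higher in the PRDM13-OE retina with dox, with 0.588, 0.22 and 0.539 CPM against 0 in all 3 untreated retinas, and had 0.144, 0.406 and 0.285 CPM in the eye cups with dox and 0.0503, 0 and 0 CPM in untreated ones. This level stands on a few reads a library, and the gene was singled out after its values were seen.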
